A study of Mus musculus with 27 samples.

Results

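Spleen RNA of female NOD/LtJ mice at 16 weeks of age was compared with that at 12 weeks of age on arrays that had been scanned on a single day. The members were chosen by the scan day in the file headers, which left 4 arrays of 16 weeks (numbered 1 to 4 in the labels) and 3 arrays of 12 weeks (numbered 1, 2 and 5), 7 of the 27 arrays of the series. The other 2 arrays of 12 weeks had another scan day and were used only beside these results. Each array was a 2-colour Agilent whole mouse genome array. The green dye, Cy3, carried NOD RNA, and the red dye, Cy5, carried RNA of NOD.B10Sn-H2b/J, called NOD.B10 here, a congenic strain with another H2 haplotype that does not develop the diabetes of NOD mice. No treatment is named. The labels put the diabetic state on every sample of the series, the youngest included, so it separates nothing here. The design text names reference groups of 10 NOD.B10 mice at 10 days and at 20 weeks of age, and which of these RNAs was hybridised to the arrays of 12 and 16 weeks is not given in the sources used here. Nor is it given whether an array held RNA of a single NOD mouse or of several. The dyes were not exchanged on any array, so a dye bias of a probe and a strain difference cannot be told apart. A change between ages within 1 dye does not carry that bias, but in the red dye it compares reference hybridisations and not ages of NOD mice.

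NOD mice develop autoimmune diabetes because T cells destroy the insulin-producing beta cells of the pancreatic islets, and females are affected earlier and more often than males. The spleen is a secondary lymphoid organ that also filters blood, and in mice it makes red cells and granulocytes throughout life. The tail of the pancreas lies against the spleen in the mouse, and the acinar cells of the exocrine pancreas make digestive enzymes at very high levels.

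Levels are given as the log2 of the processed signal of a dye minus that dye's 75th percentile on the array, so that 0 is the signal at the 75th percentile. The same 21797 genes were tested with limma in the green dye, the red dye and the log2 ratio of green over red, and an adjusted p under 0.05 (Benjamini-Hochberg, over all of them) was the call. Of these, 16400 had a symbol from RefSeq. The rest kept the name given on the array, and shares of all genes count them too. The p-values measure the spread between arrays, which in the red dye may be technical. The 7 arrays lay on 7 slides and were read by the same scanner. Their median green signal ran from 190.1 to 361.1 intensity units. SPL_16w_3 stood apart from the other arrays of 16 weeks, with a median green signal of 361.1 against 196.9 to 222.1, and with 80.9% of spots well above background in red against 60.3% to 62.7%. The B cell gene Ms4a1 and the T cell gene Cd3e gave signals well above background on each of the 7 arrays in green and in red, as did Xist, which is made from the inactive X chromosome of female cells. The Y-linked Uty gave a dim green signal, with levels of -3.90 to -2.35, that was also marked well above background on 3 of 3 arrays of 12 weeks and 3 of 4 of 16 weeks. Bulk RNA was measured, so fewer cells of a type and less RNA per cell cannot be told apart.

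In NOD spleen itself few genes passed between the ages. In the green dye 2 of 21797 genes passed (0.00918%), both higher at 16 weeks, and 1992 genes had an unadjusted p under 0.05. These were Olfr393, which belongs to the olfactory receptor genes, and the unnamed transcript 4930550C14Rik, which is given here because it is the other of the 2 and was singled out after its values were seen. The green level of Olfr393 was -5.28, -5.34 and -4.99 on the arrays of 12 weeks and -2.91, -3.11, -3.17 and -3.17 on those of 16 weeks. The ages did not overlap. The signal was not well above background on any array of 12 weeks and was so on all 4 of 16 weeks. Olfr393 entered the test through the arrays of 16 weeks alone, so these marks lend it no separate weight. With the background correction of the main test it was at least 2.39-fold higher at 16 weeks (adjusted p = 0.038). The green level of 4930550C14Rik was -4.36, -4.68 and -4.53 at 12 weeks and -2.16, -1.53, -1.36 and -1.80 at 16 weeks, at least 6.21-fold higher (adjusted p = 0.038). Both were dim, and neither passed whichever of the 7 arrays was left out. With no filter on dim probes neither passed (adjusted p = 0.092 for each). With normexp background correction no gene passed in green, and their changes were 0.49 and 0.55 (log2). These changes lie under the 2 bounds, which hold only for the background correction of the main test.

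The size of what could be seen in green was set by the spread between NOD arrays. The median within-age SD of a gene was 0.33 in green and 0.21 in red (log2), and the median half-width of the 95% confidence interval of a change was 0.57 in green and 0.36 in red. There were 1152 genes with a green change of at least 1 in size (log2), that is 2-fold, of which 2 passed. In red there were 281 such genes, of which 136 passed. Correlations between arrays across genes, where genes are not independent, were 0.961 to 0.974 in green within 12 weeks and 0.949 to 0.964 within 16 weeks, and 0.940 to 0.970 between the ages. In red they were 0.991 to 0.992 within 12 weeks and 0.976 to 0.987 between ages when SPL_16w_3 is left aside. The red arrays of 16 weeks other than SPL_16w_3 correlated with each other at 0.986 to 0.992, and with SPL_16w_3 at 0.972 to 0.975. The ranges within and between ages overlapped in green; in red, without SPL_16w_3, they met only at 0.986 to 0.987.

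**Figure D1:**
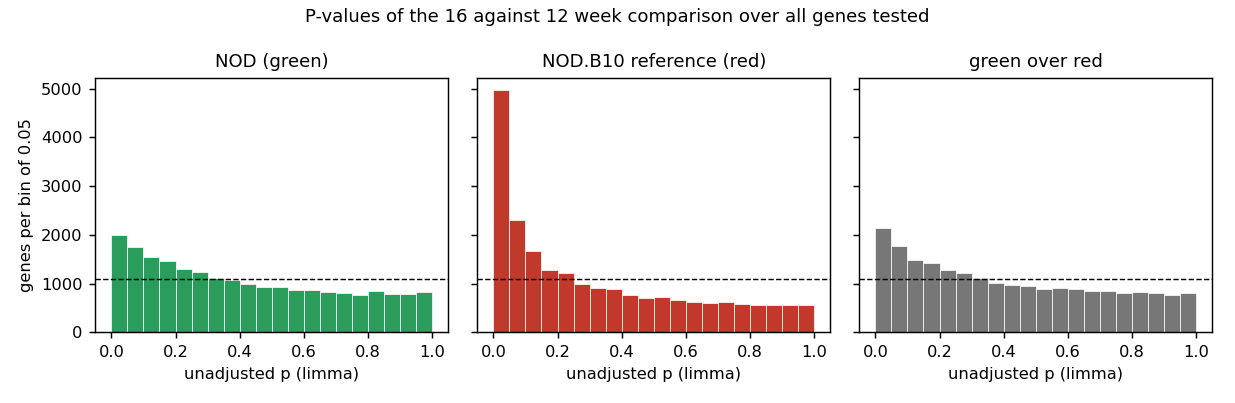
Histograms of the unadjusted limma p-values of the 21797 genes in bins of 0.05, for 16 against 12 weeks in the green dye (NOD), in the red dye (NOD.B10 reference) and in the ratio of green over red; the dashed line is an even spread. The lowest bin holds 1992 genes in green, 4975 in red and 2145 in the ratio.

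The reference differed between the arrays of the 2 ages far more often. In the red dye 567 genes passed (2.6%), 341 of them higher on the arrays of 16 weeks (1.56%) and 226 lower (1.04%), and 4975 had an unadjusted p under 0.05. Of those that passed, 136 changed at least 2-fold, 124 higher and 12 lower. Genes of the exocrine pancreas and of neutrophils were among the higher, and genes of B cells and of DNA replication among the lower. With fewer arrays in the fit the count fell, to 132, 114 and 123 without SPL_12w_1, SPL_12w_2 and SPL_12w_5. It was 150, 338, 414 and 173 without SPL_16w_1, SPL_16w_2, SPL_16w_3 and SPL_16w_4. The split moved with the setting. It went from 341 higher of 567 (60.1%) to 255 higher of 566 (45.1%) with normexp, where 401 of the calls were shared. The share higher was 44.0% with only probes well above background in both dyes, and 51.5% with quantile scaling. It was 85.4% with all 5 arrays of 12 weeks, and 90.9%, 91.2% and 91.1% without SPL_12w_1, SPL_12w_2 and SPL_12w_5.

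The ratio of green over red is the test of whether the change in NOD differed from the change in the reference. No gene passed in the ratio (0%), the smallest adjusted p was 0.238, and 2145 genes had an unadjusted p under 0.05. No red change described here was therefore shown by this test to differ from the green change of the same gene. Other settings gave calls in the ratio: 33 genes with normexp background and loess, 7 with all 5 arrays of 12 weeks, and 13 in a model over all 27 arrays. The myeloid genes S100a8 and Ms4a3, the macrophage scavenger receptor Cd163 and Wfdc21 were called, all lower at 16 weeks, under each of these 3 settings, and were named after their values were seen.

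**Figure D2:**
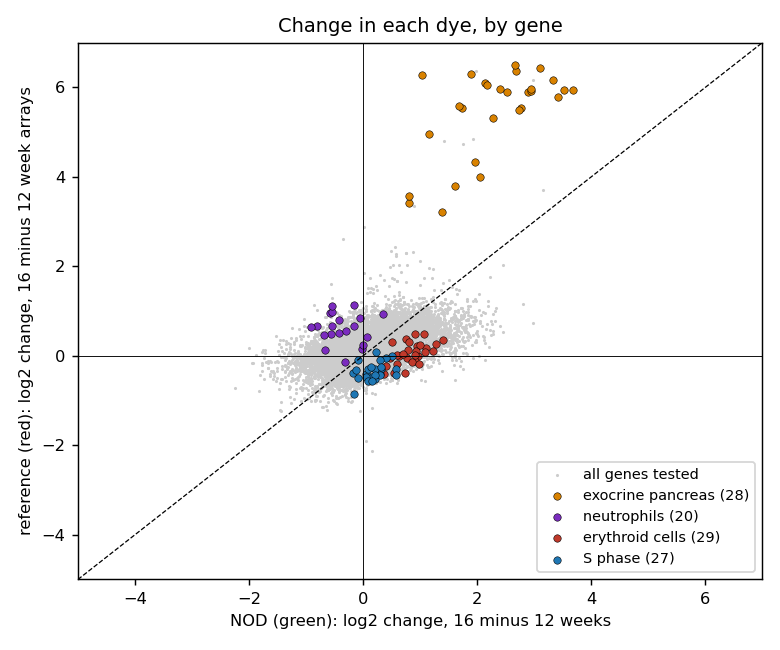
Log2 change from 12 to 16 weeks in the green dye (NOD, x axis) against that in the red dye (NOD.B10 reference, y axis); each point is a gene, coloured points are 4 gene lists with their number of measured genes, and the dashed line marks equal change. The 28 exocrine pancreas genes lie between 3.21 and 6.51 in red and between 0.80 and 3.67 in green; the neutrophil genes lie mostly above 0 in red and below 0 in green.

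Genes of the exocrine pancreas had by far the largest red changes. All 28 measured of the 32 listed passed in red and were higher on the arrays of 16 weeks, with changes of 3.21 to 6.51 and a median of 5.89, where 1.56% of all genes passed higher and the median over all genes was 0.07. This range is not exact: Amy1, at its lower end, and Ctrc were saturated on arrays of 16 weeks, and Cuzd1, Pnliprp2 and Reg3b were not well above background on any array of 12 weeks. With these 3 at their lower bound the range began at 3.096. The red median of the list on single arrays was -0.16, -0.30 and -0.13 at 12 weeks and 5.31, 5.54, 5.37 and 5.58 at 16 weeks. On the 2 arrays of 12 weeks from the other scan day it was -0.70 and -0.91. All 28 also passed without each of the 7 arrays in turn. The probes of trypsins, elastases and other close copies can share signal, so these genes are not all separate measurements.

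Among the fat-digesting enzymes, Pnlip, the pancreatic triglyceride lipase, had red levels of -0.22, -0.14 and 0.23 on the arrays of 12 weeks and 6.58, 6.27, 6.14 and 6.87 on those of 16 weeks. By its brightest probe it was 91.0-fold higher (log2 change 6.51 ± 0.20 SE, adjusted p = 3e-06), and its other probe rose by 5.44. The cofactor of Pnlip, colipase or Clps, rose by 5.95 and the bile salt-activated lipase Cel by 5.54. Pnliprp2, a lipase-related protein, was not well above background in red on any array of 12 weeks and was at least 21.1-fold higher.

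Among the proteases, Cpb1, carboxypeptidase B, had red levels of 1.42, 1.61 and 1.46 at 12 weeks and 7.99, 7.94, 7.81 and 7.97 at 16 weeks. It was 86.5-fold higher (change 6.43 ± 0.10, adjusted p = 2.47e-07). Cela2a, an elastase, went from -2.12, -2.07 and -1.78 to 4.28, 4.39, 4.09 and 4.78 (change 6.37 ± 0.18, adjusted p = 1.72e-06). The chymotrypsin-like Ctrc, which was saturated on 3 of the 4 arrays of 16 weeks, rose by 5.89 as measured, and the trypsin Prss2 rose by 5.91. Amy1, an amylase that digests starch, was saturated on all 4 arrays of 16 weeks, so its 9.26-fold rise is a lower bound.

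The regenerating family makes secreted lectin-like proteins of acinar cells. Reg1 had red levels of -0.10, 0.24 and 0.17 at 12 weeks and 6.41, 6.54, 6.29 and 6.37 at 16 weeks (change 6.30 ± 0.12, adjusted p = 2.47e-07). Reg2 went from -1.70, -1.49 and -1.51 to 4.58, 4.84, 4.64 and 4.73 (change 6.27 ± 0.11, adjusted p = 2.47e-07). Reg3b, which binds bacteria and is induced by stress of the pancreas, was at least 9.62-fold higher. Within each age the red levels of these genes lay close together, and the ages were far apart.

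In NOD, in green, the same genes varied from array to array. The green median of the exocrine list was 1.47, -2.50 and -1.93 on the arrays of 12 weeks and 4.05, -0.55, 1.99 and 0.08 on those of 16 weeks. SPL_16w_1 was the highest and SPL_12w_2 the lowest, and the ages overlapped. All 28 changes were above 0, with a median of 2.34 and a range of 0.80 to 3.67, but none passed, and the adjusted p ran from 0.369 to 0.835. Pnlip had green levels of 2.16, -3.22 and -2.01 at 12 weeks and 5.27, -1.28, 2.58 and 0.02 at 16 weeks, a change of 2.67 with a 95% confidence interval of -1.64 to 6.98. The other probe of Pnlip had a green change of 1.4. Reg2 had green levels of -1.87, -2.42 and -2.58 at 12 weeks and -0.78, -2.51, 0.31 and -2.06 at 16 weeks (interval of the change -0.52 to 2.58). Only 3 of the 28, Gp2, Pla2g1b and Reg3b, had every green array of 16 weeks above every one of 12 weeks, against 4.94% of all genes. The green median was 1.52 without SPL_16w_1 and 3.58 without SPL_12w_1, and 1.25 with normexp background.

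The ratio of green over red was lower at 16 weeks for all 28 exocrine genes, by 1.81 to 5.23, with a median of -3.01. None passed, with adjusted p from 0.238 to 0.792. In 10 of the 28 every array of 16 weeks lay below every array of 12 weeks, against 6.86% of all genes. The list median of the ratio was 1.66, -2.12 and -2.12 at 12 weeks and -1.20, -5.88, -3.40 and -5.41 at 16 weeks. SPL_12w_1 was the only array of the 7 with a list median above 0, that is with more signal in NOD than in its reference. Reg2 had the largest ratio change, -5.23 with an interval of -6.96 to -3.50 (adjusted p = 0.302), and passed in the ratio with normexp and loess (adjusted p = 0.00128) and with all 5 arrays of 12 weeks (0.0432). Pla2g1b, a phospholipase, passed under the same settings (adjusted p = 0.00518 and 0.0221). Gp2, Cuzd1, Reg3b and Spink1 passed with normexp and loess alone, which made 6 of the 28, all lower. Over all genes the ratio calls numbered 33 with normexp and loess and 7 with all 5 arrays of 12 weeks. No other setting run gave a ratio call in the list.

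Islet and liver genes were looked at as other tissues beside the spleen. None of the 13 measured islet genes passed in green, red or the ratio; the median change was 0.54 in green and 0.43 in red. The hormone genes were dim. Sst, somatostatin, had green levels of -2.89, -3.79 and -4.04 at 12 weeks and -2.29, -1.55, -2.41 and -2.24 at 16 weeks (change 1.45, adjusted p = 0.391). Ppy, pancreatic polypeptide, had a green change of 1.92 (adjusted p = 0.413). None of the 12 measured liver genes passed in any of the 3 tests, with a median of 0.29 in green and 0.40 in red. Mup1, a major urinary protein, had a green change of 1.34 (adjusted p = 0.548), and Ahsg, fetuin A, one of 0.73 (adjusted p = 0.548). The part of tissue other than spleen in these results was not tested.

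The region just upstream of the start of 4 of these genes is shown because the exocrine genes moved together, with a neutrophil gene beside them. The picks were made after the values were seen. The sequences are from RefSeq, build GRCm38.p6, 5′ to 3′ on the strand of the gene, and cover the 250 bases before the start site. Capitals mark the TATA box letters TATAAA and, as a separate motif, the letters TTTCCCA, which appear below as TGGGAAA when they lie on the other strand. Both were searched for on either strand, and no match of one overlaps a match of the other in these windows.
Pnlip, chr19:58670115-58670364, plus strand: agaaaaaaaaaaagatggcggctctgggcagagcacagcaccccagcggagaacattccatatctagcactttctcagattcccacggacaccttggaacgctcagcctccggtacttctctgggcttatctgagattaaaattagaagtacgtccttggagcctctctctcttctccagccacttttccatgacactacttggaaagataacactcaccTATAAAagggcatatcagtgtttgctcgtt
Cela2a, chr4:141826006-141826255, minus strand: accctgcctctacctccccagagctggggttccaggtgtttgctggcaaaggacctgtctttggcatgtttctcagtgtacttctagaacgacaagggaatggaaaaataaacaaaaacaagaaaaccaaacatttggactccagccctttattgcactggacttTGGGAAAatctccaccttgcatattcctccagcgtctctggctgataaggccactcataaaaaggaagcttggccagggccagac
Reg1, chr6:78425733-78425982, plus strand: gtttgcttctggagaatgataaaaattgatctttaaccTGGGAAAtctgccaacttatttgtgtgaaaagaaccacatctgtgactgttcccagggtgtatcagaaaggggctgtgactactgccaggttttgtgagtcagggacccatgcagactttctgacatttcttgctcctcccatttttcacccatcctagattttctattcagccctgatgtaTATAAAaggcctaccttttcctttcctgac
S100a8, chr3:90668821-90669070, plus strand: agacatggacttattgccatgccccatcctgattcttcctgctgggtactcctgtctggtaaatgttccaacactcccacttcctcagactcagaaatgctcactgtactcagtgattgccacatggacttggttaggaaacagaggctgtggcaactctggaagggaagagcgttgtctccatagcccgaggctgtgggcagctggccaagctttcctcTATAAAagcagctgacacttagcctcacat
TATAAA was found in 9 of 23 windows of exocrine genes, in 3 of 19 of neutrophil genes and in 12.4% of the 32851 windows of all genes. TTTCCCA was found in 6 of the 23, in 0 of the 19 and in 6.82% of all. In Pnlip, Reg1 and S100a8 the TATA letters begin at position -30, counted from the start site. A match describes these letters only.

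Many neutrophil genes were higher in the reference on the arrays of 16 weeks. Of 20 measured genes 10 passed in red, all higher, against 1.56% of all genes, with a median change of 0.65, and 19 of the 20 changes were above 0. The red list median was 0.45, 0.33 and 0.23 at 12 weeks and 0.69, 0.77, 0.96 and 0.35 at 16 weeks, so that SPL_16w_4 lay among the arrays of 12 weeks. The count was 4, 3 and 4 without SPL_12w_1, SPL_12w_2 and SPL_12w_5, and 6, 6 and 6 without SPL_16w_1, SPL_16w_2 and SPL_16w_4. In green none passed; 17 of the 20 changes were below 0 and the median was -0.42 (-0.19 with normexp and -0.21 with all 5 arrays of 12 weeks). The ratio was lower for all 20, with a median of -0.98 and no gene that passed (adjusted p from 0.302 to 0.866), and in 13 of the 20 every array of 16 weeks lay below every one of 12 weeks, against 6.86% of all genes. In none did every array lie above, against 4.72% of all genes. Ratio calls in the list, all lower, numbered 7 with normexp and loess, 5 in the model over all 27 arrays and 2 with all 5 arrays of 12 weeks. Over all genes the calls under these settings numbered 33, 13 and 7. No other setting run gave a ratio call.

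S100a8, part of the calcium-binding calprotectin of neutrophils, had red levels of 4.91, 4.83 and 4.98 at 12 weeks and 5.99, 5.97, 5.94 and 6.22 at 16 weeks (change 1.12 ± 0.11, adjusted p = 0.00317). Its green levels were 4.16, 4.28 and 4.35 at 12 weeks and 4.34, 3.32, 3.56 and 3.63 at 16 weeks (change -0.55, adjusted p = 0.562). All red arrays of 16 weeks lay above those of 12 weeks, and in green SPL_16w_1 lay among the arrays of 12 weeks. The red genes named in this list besides Ltf and Ctsg were chosen after their values were seen.

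Genes of granule proteins made early and late in granulocyte maturation were both among those that rose in red. Mpo, myeloperoxidase of primary granules, had red levels of 4.84, 4.64 and 4.80 at 12 weeks and 5.54, 5.94, 5.77 and 5.69 at 16 weeks (change 0.98, adjusted p = 0.0118), a call that was lost whichever array of 12 weeks was left out. Camp, the cathelicidin of secondary granules, went from 4.30, 4.36 and 4.23 to 5.16, 5.33, 5.25 and 5.26 (change 0.95, adjusted p = 0.00351). Chil3, a chitinase-like protein of myeloid cells, rose by 1.13 (adjusted p = 0.00648) in a fit that had no red value for SPL_16w_4, where the spot was marked as an outlier. In green, Ltf, lactoferrin, had levels of 3.05, 3.13 and 2.67 at 12 weeks and 2.88, 1.32, 2.10 and 1.81 at 16 weeks, a change of -0.92 (interval -1.77 to -0.07, adjusted p = 0.53). Ctsg, cathepsin G, had green levels of 3.51, 2.82 and 2.36 at 12 weeks and 2.13, 1.92, 2.21 and 2.08 at 16 weeks (change -0.81, adjusted p = 0.507). In red these 2 were higher at 16 weeks, by 0.65 (adjusted p = 0.0365) and 0.66 (adjusted p = 0.038), and both red calls were lost whichever of the 7 arrays was left out. The other probe of Ltf changed by -0.36 in green and by 1.16 in red.

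**Figure D3:**
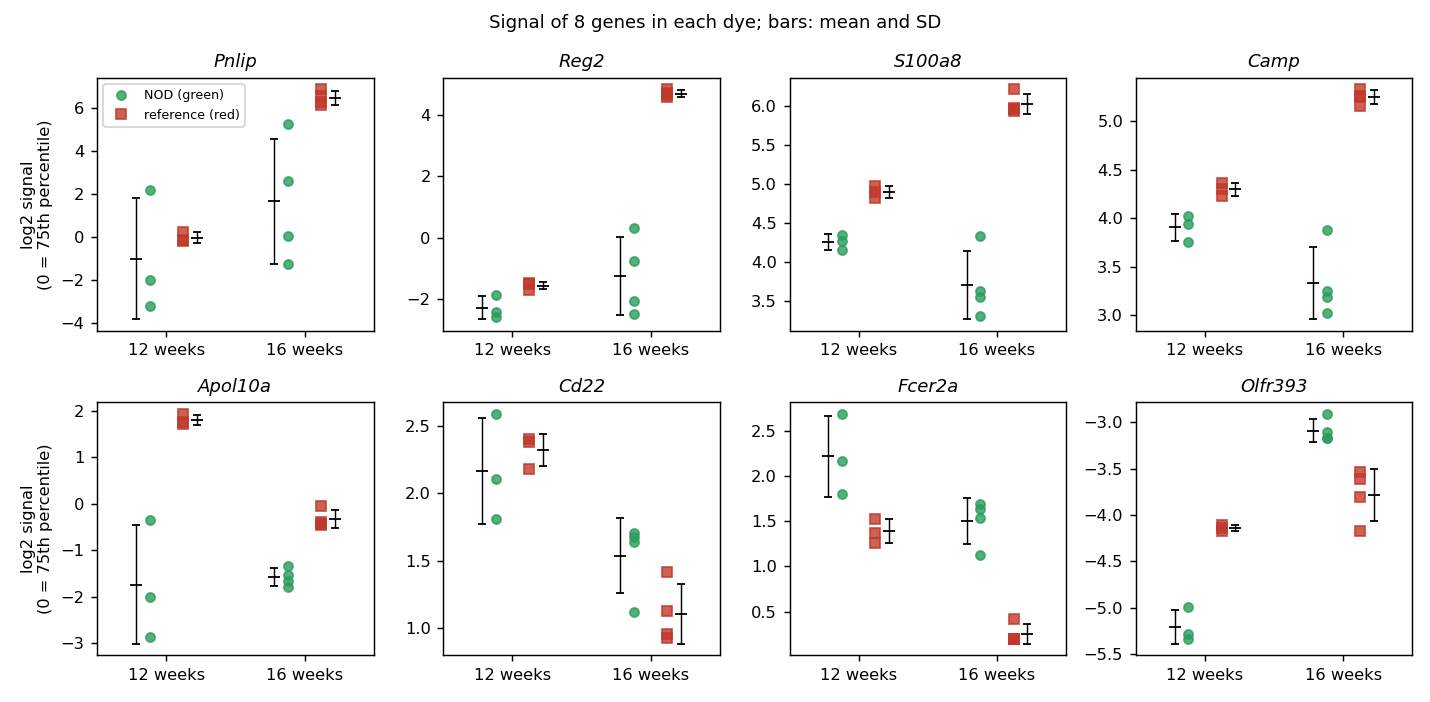
Level of 8 genes (log2 signal, 0 at the 75th percentile of the dye; each panel has its own y axis) on the 3 arrays of 12 weeks and the 4 of 16 weeks, green circles for NOD and red squares for the reference, with mean and SD. Red ages are apart for all but Olfr393; green ages overlap for Pnlip, Reg2, S100a8, Camp and Apol10a.

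Genes lower in the reference on the arrays of 16 weeks were led by a pair of the apolipoprotein L family. Apol10a had red levels of 1.76, 1.71 and 1.93 at 12 weeks and -0.43, -0.05, -0.40 and -0.45 at 16 weeks, a 4.39-fold fall (change -2.14 ± 0.13, adjusted p = 0.000195). Apol10b went from 2.60, 2.65 and 2.67 to 0.61, 0.89, 0.84 and 0.58 (change -1.91 ± 0.11, adjusted p = 0.00016). In green they had changes of 0.16 and 0.05 with intervals of -1.10 to 1.42 and -1.12 to 1.23, and the green level of Apol10a ranged from -2.87 to -0.36 within 12 weeks. The 2 are close copies whose probes may share signal. Neither red fall passed once the 2 arrays of 12 weeks from the other scan day were added (changes -1.65 and -1.32). Cyct, the cytochrome c of testis, fell by 1.24 (adjusted p = 0.0126) in red, but it was well above background on only 1 of the 4 arrays of 16 weeks, so this size is uncertain. With normexp background the change was -0.24 (adjusted p = 0.335), and the fall did not pass whichever of the 3 arrays of 12 weeks was left out.

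B cell genes came next. Of 21 measured, 4 passed in red, all lower, against 1.04% of all genes; the list median was -0.20 in red and -0.28 in green, and none passed in green. The red count was 1 to 3 without each array in turn, with 1 without SPL_12w_1 or SPL_12w_5, and with all 5 arrays of 12 weeks it was 1 and the red median turned to 0.09. Cd22, an inhibitory receptor of B cells, had red levels of 2.40, 2.18 and 2.38 at 12 weeks and 1.13, 0.96, 1.41 and 0.93 at 16 weeks (change -1.21 ± 0.14, adjusted p = 0.0089). The other probe of Cd22 moved the other way, by 0.18 in red and 0.34 in green. The mean over both changed by -0.51 in red and did not pass, and the call was also lost without SPL_12w_1 (change -1.17) or SPL_12w_5 (-1.18). Fcer2a, the low-affinity IgE receptor CD23 of follicular B cells, went from 1.27, 1.38 and 1.53 in red to 0.20, 0.42, 0.20 and 0.19 (change -1.14 ± 0.11, adjusted p = 0.00339). Fcer2a was also lower in NOD on every green array of 16 weeks than on every one of 12 weeks, without passing. Its green levels were 1.80, 2.17 and 2.69 at 12 weeks and 1.69, 1.54, 1.13 and 1.64 at 16 weeks (change -0.72, interval -1.31 to -0.13, adjusted p = 0.509). The green change of the brighter Cd22 probe was -0.63 (interval -1.20 to -0.06, adjusted p = 0.528), against the 0.34 of the other. The other 2 B cell genes that passed, Cd79b, a signalling chain of the B cell receptor, and Bank1, a B cell scaffold protein, fell by 0.79 and 0.58 in red and were named after their values were seen. Cd79b kept its call only without SPL_16w_3, and Bank1 only without SPL_16w_2, of the 7 arrays left out in turn.

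The T cell genes that passed in the reference went the other way. Of 23 measured, 3 passed in red, all higher, against 1.56% of all genes, with a list median of 0.26, and none in green, where the median was 0.02. The red count was 1 without SPL_12w_1, SPL_12w_2, SPL_12w_5, SPL_16w_1 or SPL_16w_4. Il7r, the receptor of interleukin 7, had red levels of 2.91, 2.87 and 2.81 at 12 weeks and 4.20, 3.90, 3.88 and 4.09 at 16 weeks (change 1.15, adjusted p = 0.00339) and was named after its values were seen. Of 14 genes of regulatory and activated T cells, 2 passed in red, both higher, against 1.56% of all genes, and all 14 changes were above 0, with a median of 0.43. The count was 1 without each of the 7 arrays in turn, and 0 with all 5 arrays of 12 weeks and in the model over all 27 arrays. On the 2 arrays of 12 weeks from the other scan day the red list median was 0.49 and 0.46. Both lay above the arrays of 16 weeks, at 0.26 to 0.42. Pdcd1, the checkpoint receptor PD-1, had red levels of 0.21, 0.16 and 0.13 at 12 weeks and 1.07, 1.26, 1.17 and 1.03 at 16 weeks (change 0.97, adjusted p = 0.00399), with a green change of 0.00 (interval -0.80 to 0.81). Its red call was lost with all 5 arrays of 12 weeks (adjusted p = 0.0525) and over all 27 arrays (0.0682). Tnfrsf4, the costimulatory receptor OX40, rose by 0.79 in red (adjusted p = 0.0467) and did not pass whichever of the 7 arrays was left out. Both genes were picked after their values were seen. Foxp3, the transcription factor of regulatory T cells, had green levels of -3.29, -3.44 and -3.31 at 12 weeks and -3.64, -2.21, -2.55 and -1.61 at 16 weeks, so the ages overlapped (change 0.84, adjusted p = 0.579). Il2ra had a green change of 0.51 (adjusted p = 0.586) and was below 0 when all its probes were averaged (-0.05).

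Of 18 genes of natural killer and cytotoxic cells 1 passed in red, lower, against 1.04% of all genes, with a list median of -0.30 in red, 0.04 in green and 0.45 in the ratio. It was Klra8, an activating receptor of natural killer cells, with red levels of -0.22, -0.22 and -0.08 at 12 weeks and -0.73, -0.62, -0.72 and -0.72 at 16 weeks (change -0.52, adjusted p = 0.035), named after its values were seen. It did not pass whichever of the 7 arrays was left out. Ncr1, the receptor NKp46, had a green change of 0.61 (adjusted p = 0.594) and Il18rap, a subunit of the interleukin 18 receptor, one of -0.62 (adjusted p = 0.593). The red list median was -0.44 and -0.43 on the 2 arrays of 12 weeks from the other scan day. These lay within the range of the arrays of 16 weeks, -0.44 to -0.36.

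Genes of red cell formation had green changes of 1 direction in NOD, and their size rested on 1 array. All 29 measured erythroid genes had green changes above 0, from 0.37 to 1.39 with a median of 0.86, where the median over all genes was 0.01, and none passed (adjusted p from 0.562 to 0.792). The green list median was 3.44, 2.89 and 0.67 on the arrays of 12 weeks and 3.66, 3.15, 3.21 and 2.73 on those of 16 weeks. SPL_12w_5 was low and the other arrays of 12 weeks lay within the range of 16 weeks. Without SPL_12w_5 the median change was 0.04, and without SPL_12w_1 it was 1.43. In the reference the list median was 0.05, with red arrays between 3.88 and 4.09. The 2 arrays of 12 weeks from the other scan day had green list medians of 1.78 and 0.90.

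Rhd, a red cell membrane protein of the Rh family, had green levels of 5.52, 4.45 and 1.83 at 12 weeks and 5.99, 4.99, 5.32 and 5.01 at 16 weeks (change 1.39, interval -0.51 to 3.30, adjusted p = 0.603). Epb42, protein 4.2 of the red cell skeleton, had 0.92, 0.13 and -2.35 against 1.14, 0.9985, 0.78 and 0.49 (change 1.28, adjusted p = 0.593). The 13 haem synthesis genes had a green median change of 0.56, which was -0.05 without SPL_12w_5, and none passed. Alas2, the erythroid enzyme of the initial step of haem synthesis, had green levels of 5.65, 4.54 and 3.24 at 12 weeks and 6.47, 5.20, 5.15 and 5.36 at 16 weeks (change 1.07, adjusted p = 0.589). Urod, a later enzyme of that pathway, had a green change of 0.87 (adjusted p = 0.586). In each of these 4 genes SPL_12w_5 had the lowest green level of the 7 arrays.

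Cell division genes were also low in green on SPL_12w_5, and most of their red changes were below 0. The green list median of 27 S phase genes was 2.86, 2.49 and 1.16 at 12 weeks and 2.58, 2.45, 2.18 and 2.32 at 16 weeks. None passed in green, and the median change was 0.21, or -0.20 without SPL_12w_5. The 28 genes of G2 and M phase had green medians of 2.01, 1.42 and 0.16 at 12 weeks and 1.98, 1.45, 1.54 and 1.72 at 16 weeks; their median change was 0.41, or -0.15 without SPL_12w_5. Rrm2, a subunit of ribonucleotide reductase, had a green change of 0.58 (adjusted p = 0.679), and Cdc6, which licenses replication origins, one of 0.57 (adjusted p = 0.695). The other probe of Cdc6 had a green change of 0.17. In G2 and M phase, Kif2c, a mitotic kinesin, had a green change of 1.05 (adjusted p = 0.546) and cyclin B2, Ccnb2, one of 0.84 (adjusted p = 0.668).

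In red the S phase list had a median change of -0.39, with array medians of 3.34, 3.33 and 3.46 at 12 weeks and 2.93, 2.97, 2.79 and 2.91 at 16 weeks. In 20 of the 27 genes every red array of 16 weeks lay below every one of 12 weeks, against 11.7% of all genes, and in 0 above, against 11.4%; 3 passed, all lower, against 1.04% of all genes. Among them were E2f1, a transcription factor of the entry into S phase, with a change of -0.84 (adjusted p = 0.0209), and Uhrf1, which helps copy DNA methylation, with -0.56 (adjusted p = 0.0415). The other probe of E2f1 changed by -0.30 in red, and the mean of its probes by -0.57 (adjusted p = 0.0556). E2f1 also did not pass with the replicate block (adjusted p = 0.0608) or with all 5 arrays of 12 weeks (change -0.39, adjusted p = 0.53). Top2a, a topoisomerase, was the gene of G2 and M phase that passed (change -0.49, adjusted p = 0.0485), and it did not pass whichever of the 7 arrays was left out, nor with quantile scaling, normexp, no filter, the mean of probes or the replicate block. These 3 were named after their values were seen. Between 0 and 1 of the S phase genes passed when 1 array was left out, whichever it was, and 0 with all 5 arrays of 12 weeks, where the red list median was -0.13.

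**Figure D4:**
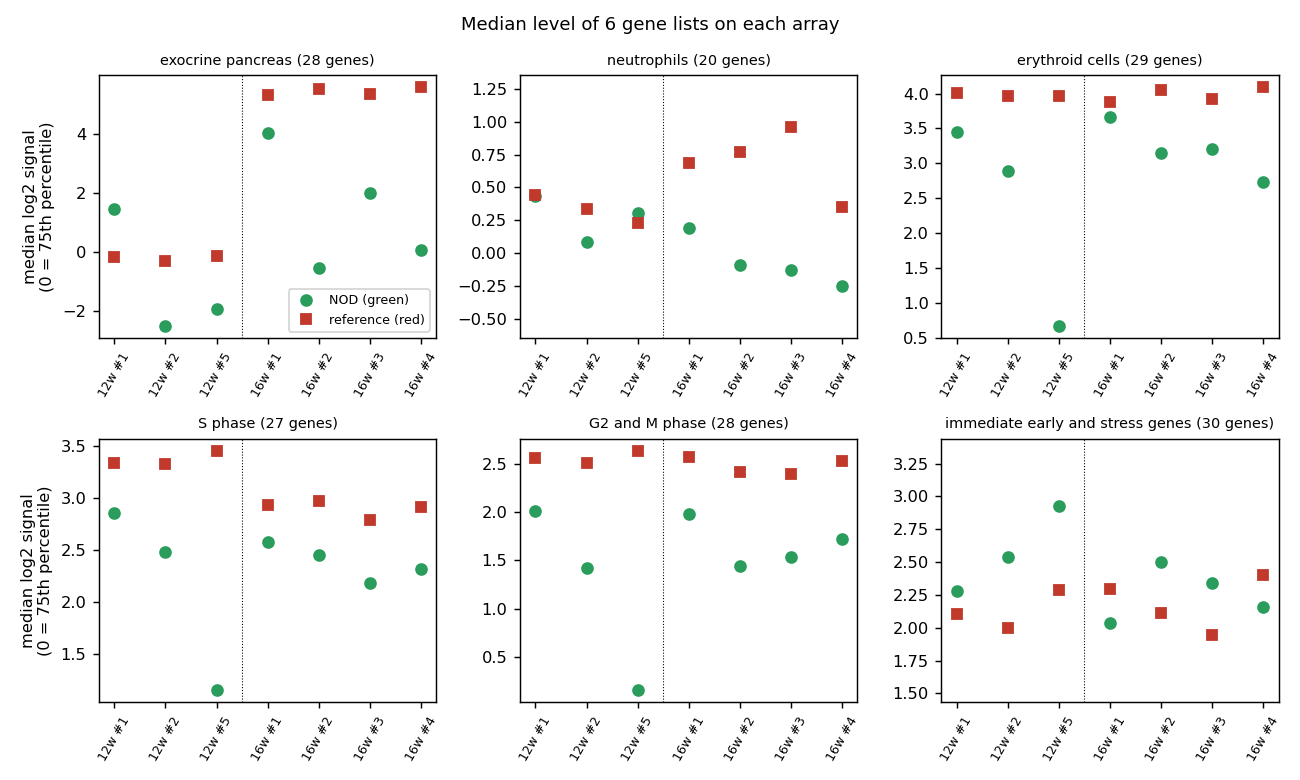
Median level of 6 gene lists (log2 signal, 0 at the 75th percentile of the dye; each panel has its own y axis) on each of the 7 arrays, green circles for NOD and red squares for the reference; the dotted line divides 12 from 16 weeks. Exocrine pancreas genes are apart by age in red, from -0.30 to -0.13 against 5.31 to 5.58, and SPL_12w_5 is the low green point in the erythroid, S phase and G2 and M phase panels.

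Immediate early and stress genes, which respond within minutes to stimulation and to handling of tissue, had green changes mostly below 0. Of 30 genes 29 had changes below 0 with a median of -0.42, and none passed (adjusted p from 0.421 to 0.945). The green list median was 2.28, 2.54 and 2.93 at 12 weeks and 2.03, 2.50, 2.34 and 2.16 at 16 weeks, so the ages overlapped. Fos had green levels of 1.53, 1.21 and 1.30 at 12 weeks and 0.06, 0.04, 0.98 and 0.30 at 16 weeks (change -1.002, interval -1.61 to -0.39, adjusted p = 0.421). Nr4a1, a nuclear receptor induced by antigen receptor signals, had 5.64, 6.20 and 6.32 against 3.67, 5.46, 5.80 and 4.51 (change -1.19, adjusted p = 0.546). In red the list median was -0.06, and Sik1, a kinase induced by cyclic AMP and named after its values were seen, rose by 0.90 (adjusted p = 0.023), a call that was lost whichever array of 12 weeks was left out, and also without SPL_16w_1 or SPL_16w_4.

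The adipose list of 12 genes had a green median change of 0.44 and none passed. Pck1, the enzyme that commits carbon to glucose and glycerol synthesis, had green levels of -1.57, 0.35 and -1.89 at 12 weeks and 0.36, -0.59, 1.59 and 0.60 at 16 weeks (change 1.52, adjusted p = 0.548). Slc2a4, the insulin-dependent glucose carrier GLUT4, had a green change of 0.80 (adjusted p = 0.665), which was -0.02 without SPL_12w_5. The green list median was highest on SPL_16w_3 (1.66) and SPL_12w_2 (1.24), so it did not follow age.

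Among the 528 members of the other 28 lists, B and T cells included and a gene counted once in each list that holds it, none passed in green, where the list medians ran from -0.38 to 0.32. In red 21 rose and 15 fell, which is 3.98% and 2.84% of them, against 1.56% and 1.04% of all genes. A few of them are named here after their values were seen. Hspa1a, an inducible heat shock protein, had red levels of -0.21, -0.31 and 0.06 at 12 weeks and 1.76, 1.86, 1.78 and 1.91 at 16 weeks (change 1.98, adjusted p = 0.00016), with a green change of 0.47 (adjusted p = 0.621). Ciita, the regulator of MHC class II genes, fell in red by 0.91 (adjusted p = 0.0123), a call that was lost whichever array of 12 weeks was left out and also without SPL_16w_1, and the change was -0.51 with all 5 arrays of 12 weeks. Of 11 monocyte genes 8 had red changes below 0, with a median of -0.14. Cd14, a receptor for bacterial lipopolysaccharide, rose by 0.97 (adjusted p = 0.00559), and Ccr2, a chemokine receptor of monocytes, fell by 0.62 (adjusted p = 0.0356). The call of Cd14 held without each of the 7 arrays in turn and was lost with all 5 arrays of 12 weeks (adjusted p = 0.0766) and over all 27 (0.053), while that of Ccr2 held, of the 7 arrays left out in turn, only without SPL_16w_2. Of 13 genes of mesothelium and epithelium, 2 passed in red, both higher, against 1.56% of all genes. Their red changes were above 0 in 9 and below 0 in 4, with a median of 0.28. Krt18, a keratin of simple epithelia, went from -1.14, -1.06 and -0.80 to 0.21, 0.38, 0.43 and 0.34 in red (change 1.34, adjusted p = 0.00186). The 24 genes of stroma and matrix had a red median of -0.02, with 11 changes above 0 and 13 below. In red 3 of them passed, 1 higher, against 1.56% of all genes, and 2 lower, against 1.04%. Pdgfra, a growth factor receptor of stromal cells, rose by 0.85 (adjusted p = 0.0228). The collagen genes Col3a1 and Col1a1 fell in red by 1.002 (adjusted p = 0.02) and 0.85 (adjusted p = 0.0254). Each of these 3 calls was lost whichever array of 12 weeks was left out and without SPL_16w_1 or SPL_16w_4, and that of Pdgfra also without SPL_16w_2. With the mean of probes the falls of the collagens did not pass (changes -0.54 and -0.42). Their green changes were -1.08 (adjusted p = 0.388) and -0.96 (adjusted p = 0.391).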

How the data were processed

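Whole mouse genome 2-colour arrays of 7 spleen samples were used. The authors' deposited spot intensity values, per the file headers, came from Agilent Feature Extraction 8.5.1.1, which corrects background and normalises the dyes within an array. Outliers, saturation and signal well above background came from the deposited quality marks, an other unit of 0 or 1. The authors' value table is, per the labels, a log10 ratio of NOD to NOD.B10 signal and equalled the negative of the scanner's log10 ratio within 5e-05.

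From these, log2 signals minus each array's 75th percentile, and the log2 ratio, were computed. Outlier spots were missing and the remaining replicate spots were averaged. Probes stayed in (30744 of 41174) if all arrays of an age were well above background in green or in red, and the brightest probe stood for a gene. RefSeq tables of GRCm38.p6 gave symbols by accession for 22072 probes, by another accession for 142 and by symbol for 9432; 9528 had none. An "at least" fold sets the higher age's mean against, on each array of the dim age, the higher of the probe's own signal and the lowest signal well above background. Such a bound holds only for the background correction of the main test. Tests used limma 3.58.1 in R 4.3.3, all two-sided, and the scripts were tested on simulated data. The number of arrays limits the precision.

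Genes were named by rule: the 12 highest and lowest in green and 5 in red and ratio that passed, were well above background and did not overlap by age, and up to 4 passing or 2 other members of each list described. Lists were described where a median change in green, red or the ratio reached 0.4 in size. They were also described where at least 1 in 3 measured members passed in 1 direction, at 2 times the share of all genes or more. The B cell and T cell lists met neither limit and were described outside this rule. The arrays and the 41 lists, a sex-linked check included, were chosen with earlier results of these data known. Alternatives were other scaling, background, probe filter and probe choice, other arrays in the fit, a replicate block, leaving out each array and, added after seeing the data, array weights. Some single-gene results are not reported here.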

Additional observations from a re-analysis of the deposited data

Results flagged for a closer look

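Of 88 sets of 4 arrays of 16 weeks examined for an array far from the others, 10 exceeded Dixon's 95% critical value for the gap divided by the range. Chance alone gives about 1 in 20 where sets are independent and not picked by their values. These sets share genes and dyes, and many of the genes were picked by their values. The 10 of 88 was therefore not weighed against that share. The green array median (0.846) and the share of spots well above background in red (0.884) were highest on SPL_16w_3, as was the red median of the islet genes (0.908), at -1.62 against -2.63 to -2.53. SPL_16w_2 was highest in red for Apol10a (0.88), at -0.05 against -0.45 to -0.40, for Fcer2a (0.964), at 0.42 against 0.19 to 0.20, and for Klra8 (0.9), at -0.62 against -0.73 to -0.72. It was lowest in green for Ahsg (0.908), at -3.38 against -2.61 to -2.53. SPL_16w_4 was highest in red for S100a8 (0.836), at 6.22 against 5.94 to 5.99, and lowest in the ratio median of the liver genes (0.858), at -0.55 against 0.21 to 0.34. SPL_16w_1 was highest in green for Alas2 (0.844), at 6.47 against 5.15 to 5.36.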

How the results depend on the processing

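The 2 green calls became 1 with quantile scaling and 1 with all 5 arrays of 12 weeks. They became 0 with normexp background, with the filter in both dyes, with no filter, in a model over all 27 arrays, and in the range 0 to 0 without each array in turn. They became 4 with array weights, which were added after seeing the data. The 567 red calls became 1581 with only probes well above background in both dyes, 260 with no filter, 171 with all 5 arrays of 12 weeks, 208 over all 27 arrays, 1769 with array weights, and 114 to 414 without each array in turn. The 0 ratio calls became 33 with normexp and loess, 7 with all 5 arrays of 12 weeks and 13 over all 27 arrays; they were 0 without each array in turn, with array weights and from the deposited value table. Some of these settings also had fewer arrays or other genes in the fit, and the cause of the moves was not tested.

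The ages share only 2 replicate numbers, and nothing ties a number to an animal or day. Deviations of same-numbered arrays correlated at 0.34 and 0.06 in green and 0.14 and 0.17 in red. With the replicate block 0 genes passed in green, 559 in red, 475 of them higher, and 0 in the ratio. Of these 559 red calls, 268 were also called in the main test. The slide block was not run, because each slide held 1 array.

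Values of single genes that turned were the green changes of Cdc6, to -0.000905 with the replicate block and -0.0761 without SPL_12w_5 (-0.0761 to 1.05 without each array in turn), of Rrm2 and Slc2a4 without SPL_12w_5 (-0.0406 to 0.995 and -0.0164 to 1.37 without each array in turn), and of Il2ra, to -0.0473 with the mean of probes and -0.208 with all 5 arrays of 12 weeks. Of the other values of named genes, 767 kept their direction and side of the threshold and 192 kept direction only. Signals near background and the spread of the 3 and 4 NOD arrays limit what can be seen.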
